A study of Mus musculus with 12 samples.

Results

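Ccl8, Ccl11, Ccl2 and Ccl7 are CC chemokines, small secreted proteins that draw immune cells into tissue. Their 4 genes were chosen by name, with earlier results of these data known. Their members here are all probe sets whose single symbol in the platform annotation is 1 of these genes. This gave 4 probe sets, 1 per gene, of 12422 probe sets and 4 of 8251 named genes. Messenger RNA had been measured on 12 arrays in 4 groups of 3, adipocytes and stromo-vascular cells from each of 2 fat depots of male C57BL/6 mice, an inbred strain, aged 42 to 49 days. The depots were subcutaneous fat of the flank and intraabdominal fat of the epididymis. The labels name no engineered allele and no treatment for any group. Fat of 10 mice was pooled per depot and exposed for 45 min to 1 mg/ml collagenase. The adipocytes were the cells that floated and gave RNA at once. The stromo-vascular fraction, which holds preadipocytes, fibroblasts, vascular cells and leukocytes, was freed of red cells, plated at 60000 cells per cm2 and gave RNA after 16 h of culture in medium with serum, so fraction and culture cannot be told apart. Whether the 3 samples of a group were separate pools is not stated, so the p-values measure only the spread between these samples, which may be technical.

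CC chemokines bind receptors of the CCR family on leukocytes, and the receptor on a cell decides which chemokines call it. Ccl2, also called MCP-1, and Ccl7, or MCP-3, bind Ccr2 and recruit monocytes from the blood. Ccl8, or MCP-2, is a relative of both that in the mouse acts on Ccr8, and Ccl11, or eotaxin, binds Ccr3 and attracts eosinophils. In fat tissue the family is known for bringing in macrophages and eosinophils, and stromal cells, endothelium, macrophages and adipocytes have all been described as sources. Transcription of these genes is commonly driven by inflammatory cytokines through NF-kB, AP-1 and STAT factors.

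In the RefSeq gene table (GRCm38.p6) the 4 genes lie in 1 cluster on chromosome 11. Their order there is Ccl2, Ccl7, Ccl11, the long noncoding RNA Gm38913, Ccl12, Ccl8 and Ccl1. The RefSeq promoter table held only 1 of the 4 genes, Ccl8, so the 250 bases before its start alone are shown. They lie at chr11:82114935-82115184 on the plus strand of GRCm38.p6, and capitals mark the letters TATAAA of a TATA box, which began 32 bases before the start.
Ccl8: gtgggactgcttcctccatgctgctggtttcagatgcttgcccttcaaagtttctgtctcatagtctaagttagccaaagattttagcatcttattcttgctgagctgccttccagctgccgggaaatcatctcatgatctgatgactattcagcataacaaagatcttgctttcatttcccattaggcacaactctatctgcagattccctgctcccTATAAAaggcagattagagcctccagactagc
These letters were present on either strand in 12.4% of the 32851 promoter windows of the same length. The other motifs searched on both strands were AP-1 (TGANTCA, in 6.75% of windows), STAT (TTCNNNGAA, in 7.02%), C/EBP (TTGCNNAA, in 9.56%) and the NF-kB consensus (in 7.25%). None of these 4 had its letters in the Ccl8 window, which says only that they are not in these 250 bases. The TATA box was the 1 match, so no matches overlapped.

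The values are MAS5 signals, a linear measure of a probe set's brightness. Differences are given on the scale of log2 of the signal plus 40.2, which understates the change of dim genes, as estimate ± standard error. The p-values come from limma, adjusted by the Benjamini-Hochberg method over 8695 tested probe sets, and called means an adjusted p under 0.05. The median signal of an array lay between 423 and 558, and arrays of 1 group correlated with r of 0.929 to 0.976 across probe sets. The ratio of the 3' to the 5' control probe set of actin, which rises as RNA breaks down, was 2.35 to 3.10 in subcutaneous adipocytes, 1.71 to 2.24 in intraabdominal adipocytes, 1.20 to 1.24 in subcutaneous and 1.11 to 1.21 in intraabdominal stromo-vascular cells. The ranges of the 2 adipocyte groups did not overlap each other or those of the stromo-vascular groups. All 9 adipocyte markers on the array were higher in adipocytes than in stromo-vascular cells of the same depot. Adipoq, the hormone adiponectin, read 140415 ± 20112 against 245 ± 46.3 in subcutaneous fat (SD, n = 3 each). Of 14 preadipocyte and fibroblast markers, 10 were called lower in adipocytes in subcutaneous and 11 in intraabdominal fat, and 1 was higher in each. Endothelial markers, however, were higher in the adipocyte samples, 10 of 11 in each depot and none lower. Among them was Cdh5, at 5517 ± 1514 against 379 ± 78.8 in subcutaneous fat. How far other cells were carried along with the adipocytes was not tested. In these bulk samples, fewer cells of a type and less RNA per cell cannot be told apart.

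Ccl8 stood apart in subcutaneous stromo-vascular cells. Its signal there was 32576, 33025 and 33745 on the 3 arrays, a mean of 33115 ± 590 (SD, n = 3), against 586, 731 and 556 in intraabdominal stromo-vascular cells, a mean of 624 ± 93.7. Every subcutaneous array lay far above every intraabdominal one, and the 3 arrays within each group lay close together. The difference was 5.65 ± 0.296, or 50.2-fold with a 95% confidence interval of 32.3 to 77.9, at a limma adjusted p of 1.96e-08. Of the 8695 probe sets tested, Ccl8 had the largest difference in the subcutaneous direction, place 1 in that order. It kept its call under all 23 other settings and subsets of arrays, with values of 5.53 to 5.79.

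In adipocytes Ccl8 was also higher in the subcutaneous depot, at a lower level. The signals were 2371, 1523 and 3044 in subcutaneous adipocytes, a mean of 2312 ± 762, and 1131, 469 and 449 in intraabdominal adipocytes, a mean of 683 ± 388 (SD, n = 3 each). The groups did not overlap, although 1 intraabdominal array, replicate 1, lay well above the other two. The difference was 1.77 ± 0.296, or 3.42-fold with a 95% interval of 2.20 to 5.30, at a limma adjusted p of 0.00224. It kept its call under all 23 alternatives and ranged from 1.55 to 2.95, the highest value being that with the actin ratio as a covariate. The actin ratio also separated the 2 adipocyte groups without overlap, so RNA quality and depot cannot be told apart for this value. The depot difference in adipocytes was smaller than that in stromo-vascular cells, with an interaction of -3.88 ± 0.419 (limma adjusted p = 3.95e-05).

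The order of the Ccl8 levels was subcutaneous stromo-vascular cells, subcutaneous adipocytes, intraabdominal adipocytes and intraabdominal stromo-vascular cells. In subcutaneous fat the adipocytes were 14.6-fold below the stromo-vascular cells, a difference of -3.87 ± 0.296 at a limma adjusted p of 5.12e-08. In intraabdominal fat the fractions overlapped, and their difference was 0.01 ± 0.296 (limma adjusted p = 0.99, 95% interval -0.63 to 0.64). Both fraction values moved when the actin ratio was added as a covariate. The subcutaneous one came to -0.92 at an adjusted p of 0.372, and the intraabdominal one to 1.93 at an adjusted p of 0.00434. Since the actin ratio separated the fractions without overlap, RNA quality and fraction cannot be told apart for these values.

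**Figure D1:**
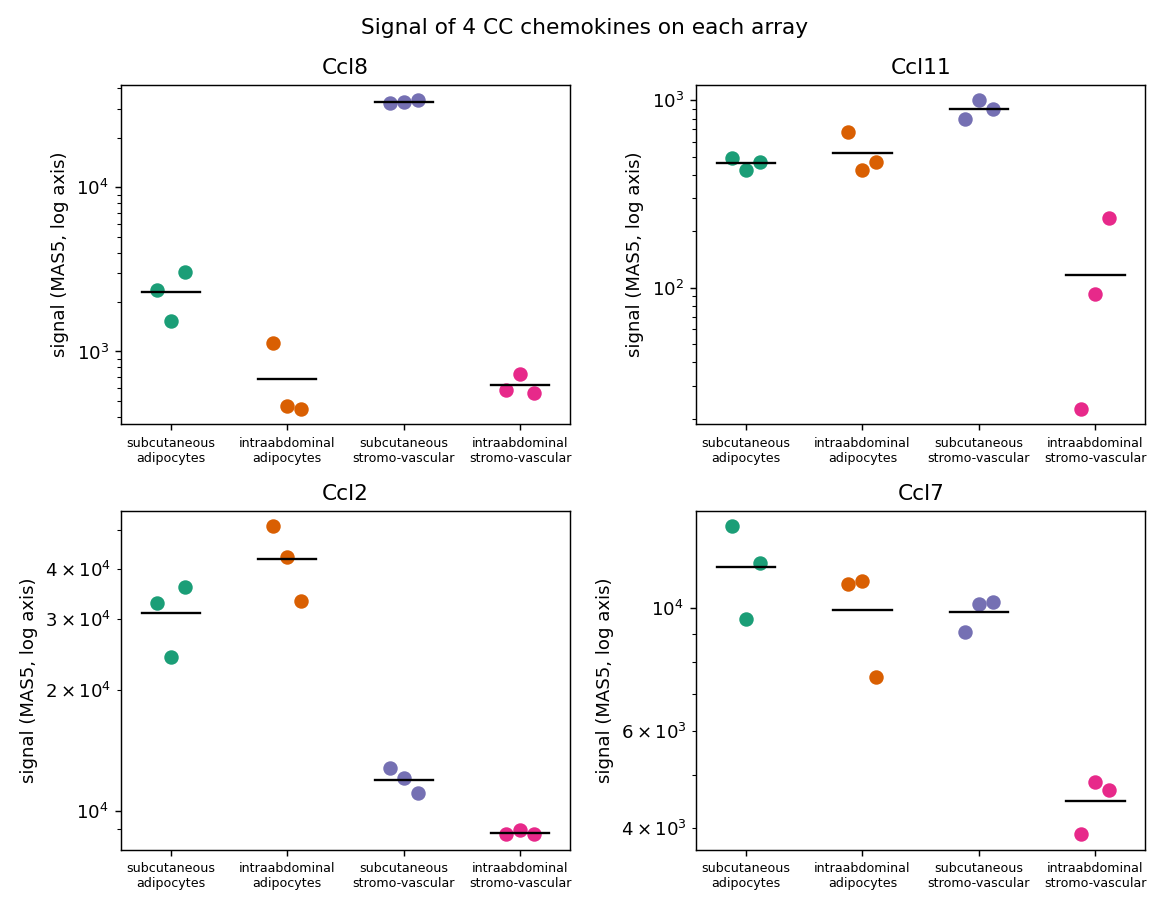
Signal of each chemokine (MAS5, log axis) on each of the 12 arrays by group, with a line at the group mean; n = 3 per group, and each panel has its own axis. Ccl8 sits at 32576 to 33745 in subcutaneous stromo-vascular cells and at or below 3044 on all other arrays, while Ccl11 and Ccl7 are lowest in intraabdominal stromo-vascular cells and Ccl2 is higher in both adipocyte groups.

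Ccl11 was low in 1 of the 4 groups. In intraabdominal stromo-vascular cells its signal was 22.6, 92.1 and 235, a mean of 116 ± 108 (SD, n = 3), and 2 of these 3 arrays lay below 173, the mean signal at the filter on dim probe sets. In subcutaneous stromo-vascular cells it was 793, 1001 and 904, a mean of 899 ± 104. The groups did not overlap, but the intraabdominal arrays differed widely among themselves. The fitted log2 difference was 2.83 ± 0.413 at a limma adjusted p of 0.00026. Its size depended on the constant added before the log, with 3.17 for a pseudocount of 16 and 2.32 for 100, and on the arrays of the dim group, with 3.36 without its replicate 3, so no fold is given for Ccl11 against this group. The call held under all 22 alternatives that gave a value.

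In adipocytes the Ccl11 signal was 494, 423 and 470 in the subcutaneous depot, a mean of 463 ± 36.0, and 682, 423 and 468 in the intraabdominal depot, a mean of 524 ± 138 (SD, n = 3 each). The groups overlapped. Their difference was -0.14 ± 0.413 (limma adjusted p = 0.859, 95% interval -1.03 to 0.74), and its sign turned to 0.049 without intraabdominal replicate 1 and to 0.20 with the actin ratio as a covariate. The depot difference of Ccl11 in adipocytes was lower than that in stromo-vascular cells by an interaction of -2.97 ± 0.585 (limma adjusted p = 0.00489). With the actin ratio as a covariate the interaction was -2.67 at an adjusted p of 0.0725, which ended its call.

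The order of the Ccl11 levels was subcutaneous stromo-vascular cells, intraabdominal adipocytes, subcutaneous adipocytes and intraabdominal stromo-vascular cells. Neighbours among the first 3 did not differ past the threshold, with limma adjusted p of 0.145 and 0.859, while the lowest pair differed by a fitted 1.93 (adjusted p = 0.00109). In intraabdominal fat Ccl11 was higher in adipocytes, with a fitted log2 difference of 2.07 ± 0.413 at an adjusted p of 0.000659. This size too rests on the dim group, at 2.38 with a pseudocount of 16 and 1.63 with 100, and with the actin ratio as a covariate it was 2.63 at an adjusted p of 0.0708, which ended the call. In subcutaneous fat it was lower on all 3 adipocyte arrays than on any stromo-vascular array, with a difference of -0.90 ± 0.413 that did not pass the threshold (adjusted p = 0.0821). This value was called with a pseudocount of 100, with only the 2 groups in the fit, and without either replicate 1 or 3 of the intraabdominal stromo-vascular cells. With the actin ratio as a covariate it was -0.04 at an adjusted p of 0.991.

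Ccl2, the monocyte chemokine, was higher in adipocytes than in stromo-vascular cells in both depots. Its signal in adipocytes was 32746, 24154 and 36084 in the subcutaneous depot, a mean of 30995 ± 6155, and 50990, 42835 and 33213 in the intraabdominal depot, a mean of 42346 ± 8898 (SD, n = 3 each). In stromo-vascular cells it was 12804, 12035 and 11043 in the subcutaneous depot, a mean of 11961 ± 883, and 8772, 8951 and 8738 in the intraabdominal depot, a mean of 8820 ± 114. All 6 adipocyte arrays lay above all 6 stromo-vascular arrays. The adipocytes were higher by 1.35 ± 0.164, or 2.55-fold, in subcutaneous fat (limma adjusted p = 6.38e-06) and by 2.24 ± 0.164, or 4.71-fold, in intraabdominal fat (adjusted p = 3.13e-08). Both calls held under all 23 alternatives, while the sizes ran from 1.23 to 2.52 in subcutaneous and from 2.09 to 2.99 in intraabdominal fat. The highest of each was with the actin ratio as a covariate.

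The depot differences of Ccl2 were small and pointed opposite ways. In adipocytes the subcutaneous minus intraabdominal difference was -0.45 ± 0.164 with overlapping arrays (limma adjusted p = 0.107, 95% interval -0.80 to -0.10). In stromo-vascular cells it was 0.44 ± 0.164 with no overlap (adjusted p = 0.105, 95% interval 0.08 to 0.79). Neither passed the threshold. The adipocyte value was called with each array centred on its median (-0.67, adjusted p = 0.0487) and without intraabdominal replicate 3 (-0.61, 0.0264), and came to 0.014 with the actin ratio as a covariate. The stromo-vascular value was called under 4 of 23 alternatives, at 0.44 to 0.49. The interaction of -0.88 ± 0.232 was called (adjusted p = 0.0289), but it was lost under 10 of 22 alternatives. It was lost without any 1 of 8 arrays, which were subcutaneous adipocytes replicate 2, intraabdominal adipocytes replicate 1 or 2, subcutaneous stromo-vascular cells replicate 1 or 2, and each of the 3 intraabdominal stromo-vascular arrays (-0.71 to -0.89, adjusted p 0.0553 to 0.0789). With the actin ratio as a covariate it was -0.48 at an adjusted p of 0.368.

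Ccl7 was low in intraabdominal stromo-vascular cells, and its other 3 groups overlapped each other. The signal there was 3902, 4844 and 4690, a mean of 4479 ± 505, against 9078, 10195 and 10249 in subcutaneous stromo-vascular cells, a mean of 9840 ± 661 (SD, n = 3 each). The groups did not overlap. Their difference was 1.13 ± 0.172, or 2.19-fold with a 95% interval of 1.70 to 2.83, at a limma adjusted p of 0.000352, and it held under all 23 alternatives.

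In adipocytes the Ccl7 signal was 14077, 9558 and 12058 in the subcutaneous depot, a mean of 11898 ± 2264, and 11042, 11199 and 7527 in the intraabdominal depot, a mean of 9923 ± 2076 (SD, n = 3 each). These groups overlapped, with a difference of 0.27 ± 0.172 (limma adjusted p = 0.359, 95% interval -0.10 to 0.63). In intraabdominal fat the adipocytes were 2.18-fold above the stromo-vascular cells, by 1.12 ± 0.172 (adjusted p = 6.13e-05), and in subcutaneous fat the fractions overlapped, with 0.26 ± 0.172 (adjusted p = 0.226). In the order of Ccl7 levels the 2 steps from subcutaneous adipocytes through subcutaneous stromo-vascular cells to intraabdominal adipocytes did not pass the threshold (adjusted p = 0.226 and 0.972), and the last step down did. The interaction of -0.87 ± 0.243 was just past the threshold (adjusted p = 0.0400) and was lost under 14 of 22 alternatives. It was lost without any 1 of 10 arrays, all but subcutaneous adipocytes replicate 1 and intraabdominal adipocytes replicate 3 (-0.72 to -0.93, adjusted p 0.0542 to 0.107). It was also lost with no filter on dim probe sets (adjusted p = 0.0520) and with the actin ratio as a covariate (-0.71 at 0.268).

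**Figure D2:**
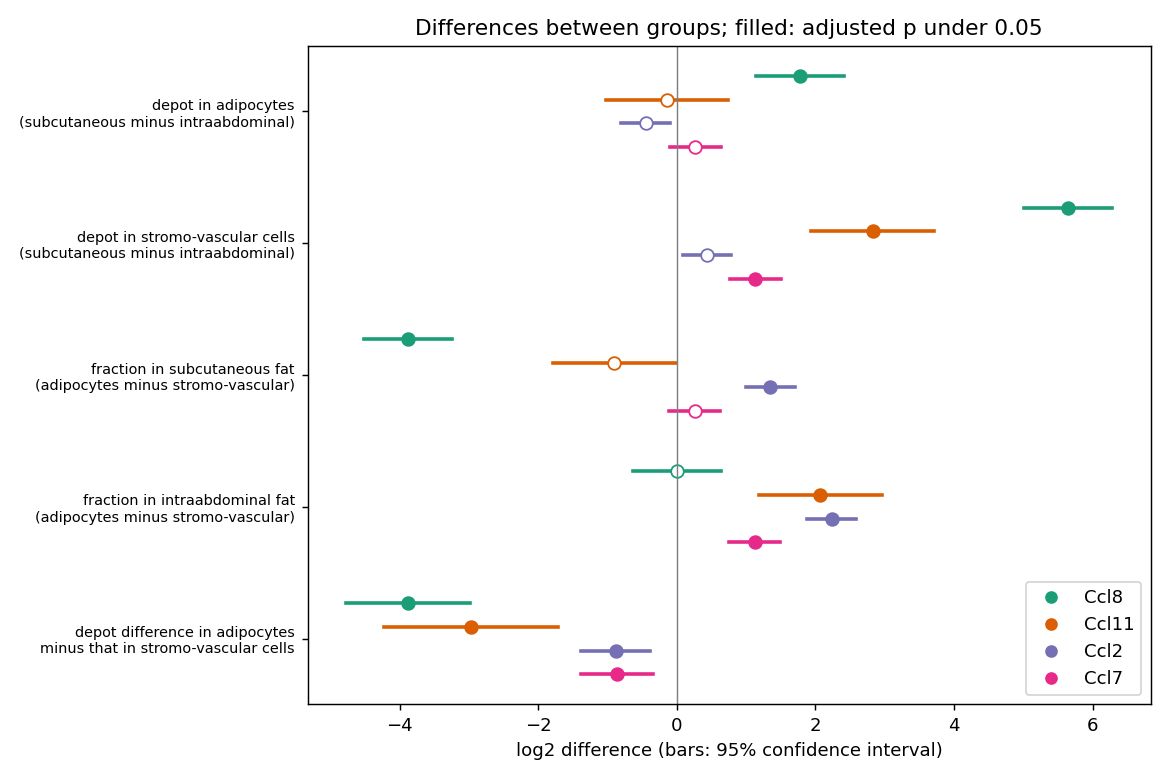
Log2 differences of the 4 chemokines in the 5 comparisons, with 95% confidence intervals from limma; filled points have an adjusted p under 0.05, and n = 3 arrays per group. Ccl8 at 5.65, Ccl11 at 2.83 and Ccl7 at 1.13 are above 0 in stromo-vascular cells by depot, Ccl8 alone is filled by depot in adipocytes, and all 4 interactions lie below 0.

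Counted over the cluster, 3 of the 4 genes were higher in the subcutaneous depot in stromo-vascular cells and none was lower, where 6.49% of all tested probe sets were called higher and 12.9% were called in either direction. The median of the 4 differences was 1.98, beside 0.06 over all tested probe sets. In adipocytes 1 of the 4, Ccl8, was higher in the subcutaneous depot, where 8.13% were called, and the median of the 4 was 0.06 beside 0.07. All 4 had a negative interaction past the threshold, beside 4.53% of probe sets called in that direction and 8.43% in either. Their median interaction was -1.93, beside 0.03. The 4 genes were chosen with earlier results of these data known, so the shares over all probe sets are given for scale only. Without replicate 1 or 2 of the intraabdominal adipocytes the calls by depot in adipocytes went from 707 to 375 or 367 probe sets. Of the 707, 345 were higher and 362 lower, while centring every array on its own median gave 172 higher and 786 lower, with the median of all tested at -0.15. For the interaction the split was 339 higher and 394 lower, and 229 and 466 after centring, with the median at -0.13.

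Between the fractions calls were common over all probe sets. In subcutaneous fat 1 of the 4 was higher in adipocytes, Ccl2, and 1 was lower, Ccl8, where 52.8% of probe sets were called. In intraabdominal fat 3 of the 4 were higher in adipocytes, Ccl11, Ccl2 and Ccl7, where 22.4% were called higher and 51.3% in either direction. Across the unlike pairs, used here only to order the levels, all 4 differed between subcutaneous adipocytes and intraabdominal stromo-vascular cells, where 56.3% of probe sets were called. Between intraabdominal adipocytes and subcutaneous stromo-vascular cells 2 of the 4, Ccl8 and Ccl2, differed, where 50.4% were called. These comparisons share groups of arrays with each other.

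Over the 12 arrays the 4 genes did not share 1 pattern. Pearson's r of their log2 values was 0.819 for Ccl11 with Ccl7, 0.711 for Ccl2 with Ccl7, 0.646 for Ccl8 with Ccl11, 0.424 for Ccl8 with Ccl7, 0.409 for Ccl11 with Ccl2 and -0.275 for Ccl8 with Ccl2. These are descriptions over n = 12 arrays that fall into 4 groups and share the arrays' RNA quality. By the same measure, over 6435 other named genes, the closest to Ccl8 were Ide, the insulin-degrading enzyme (0.947), Tapbp, or tapasin, which loads peptides on MHC class I (0.936), Hexa, a lysosomal hexosaminidase subunit (0.934), Tnfsf11, the cytokine RANKL (0.930), and Slc11a2, an iron transporter (0.927). All 5 had their highest group mean in subcutaneous stromo-vascular cells, Tnfsf11 at 595 beside 110 to 183 in the other groups. This largely follows from their choice by correlation with Ccl8 over the same arrays.

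The closest to Ccl11 were Cd302, a C-type lectin receptor (0.907), Rarres2, the adipokine chemerin (0.903), H2-D4 (0.896), H2-Q4 (0.893) and C2, a complement component (0.887). The closest to Ccl7 were Fxyd1, a regulator of the sodium pump (0.970), H2-D1 (0.951), H2-K1 (0.944), Adcy4, an adenylate cyclase (0.943), and Mt1, a metallothionein (0.935). The 4 H2 genes are MHC class I genes, and their probe sets are of the kind that can bind several family members, so these are uncertain as single genes. The closest to Ccl2 were Nnmt, or nicotinamide N-methyltransferase (0.988), Tmx2 (0.987), D430019H16Rik (0.983), Echs1, an enzyme of fatty acid oxidation (0.983), and Vtn, or vitronectin (0.983). All 5 of these were higher in both adipocyte groups than in both stromo-vascular groups by their means, like Ccl2, which largely follows from their choice by correlation.

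Of 19 other CC chemokine ligands, 10 were on the array with a probe set of their own and 6 were bright enough to test. None of the 6 was called by limma by depot in adipocytes or in stromo-vascular cells, where 2 and 1 of them had an unadjusted p under 0.05. Ccl1, the cluster's neighbour of Ccl8, had a depot difference of 0.38 in stromo-vascular cells (limma adjusted p = 0.768), and Ccl22, a ligand for Ccr4, had 0.71 (adjusted p = 0.106). Ccl12, which lies between Ccl11 and Ccl8, was too dim to test and read 21.4 to 312 over the 12 arrays, with every group overlapping the others.

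Ccl9, a myeloid cell chemokine, was the 1 other ligand with a called interaction, -0.996 at an adjusted p of 0.0495. Between the fractions 3 of the 6 were lower in subcutaneous adipocytes (Ccl3, Ccl6 and Ccl9) and 1 was higher, Ccl4, by 2.16 (adjusted p = 0.0159). The single arrays of Ccl4 spread from 226 to 2411 in that group. In intraabdominal fat Ccl4 was higher in adipocytes by 3.46 (adjusted p = 0.000628), and Ccl6 and Ccl9 were lower. Unlike Ccl2, then, 2 of the 6, Ccl6 and Ccl9, were called lower in the adipocytes of both depots.

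Of 16 CC and atypical chemokine receptors, 14 were on the array and 6 were tested. Ccr2 and Ccr3, the receptors of Ccl2, Ccl7 and Ccl11, and Ccr8, the receptor of Ccl8 in the mouse, were on the array and too dim to test, with group means of 43.5 to 126 for Ccr2, 94.4 to 169 for Ccr3 and 52.3 to 113 for Ccr8. In stromo-vascular cells 2 of the 6 were higher in the subcutaneous depot. They were Ackr3, an atypical receptor for Cxcl12, by 1.10 (2548 ± 185 against 1165 ± 124, adjusted p = 0.00161), and Ccr6, the receptor of Ccl20, by 1.57 (527 ± 161 against 168 ± 126, adjusted p = 0.0344). In adipocytes 1 was higher in the subcutaneous depot, Ccrl2, a chemerin-binding receptor, by 1.02 (adjusted p = 0.0449). None of the 6 was called for the interaction by limma, with adjusted p from 0.0701 for Ackr3 upward and 3 of them with an unadjusted p under 0.05. Ackr2, a scavenger receptor that takes up inflammatory CC chemokines, read 0.46 in stromo-vascular cells and 0.89 in adipocytes by depot, and neither passed the threshold (adjusted p = 0.65 and 0.295).

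**Figure D3:**
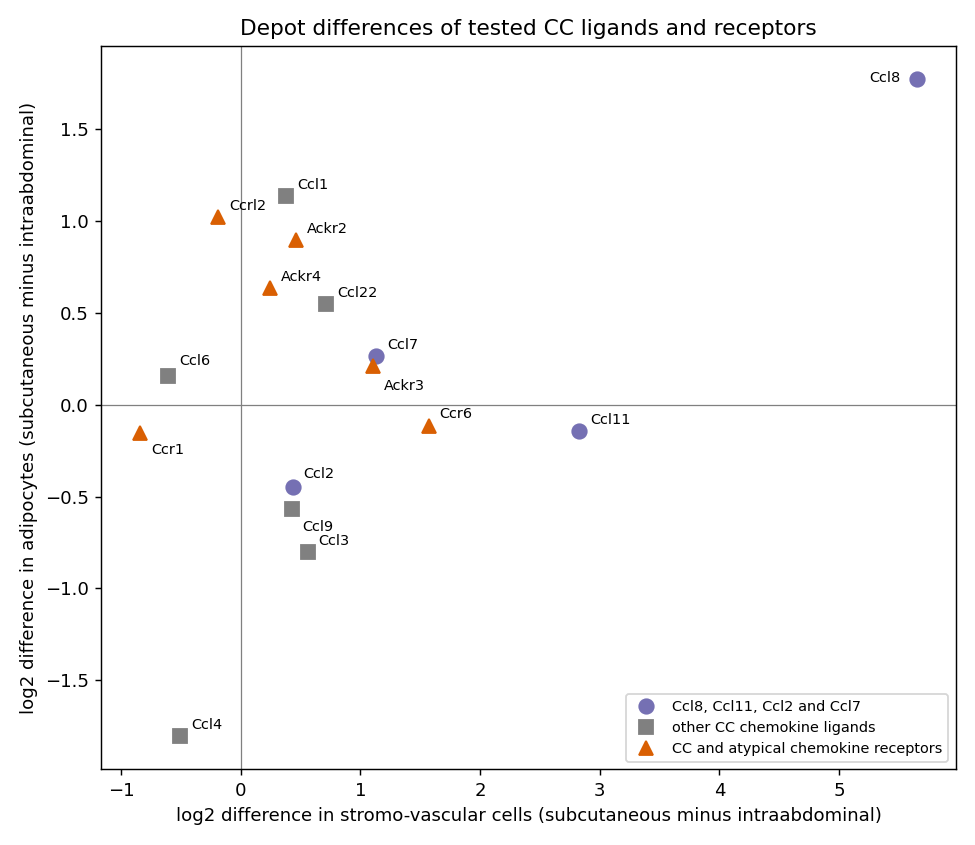
Depot difference (subcutaneous minus intraabdominal, log2) in stromo-vascular cells on the horizontal axis and in adipocytes on the vertical axis for the 4 chemokines, 6 other CC ligands and 6 receptors that were tested. Ccl8 lies alone at 5.65 and 1.77, and Ccl11 at 2.83 and -0.14 is next along the horizontal axis.

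Genes upstream of CC chemokines were taken from a list of 28 cytokines, receptors and adaptors, of which 20 were tested. In stromo-vascular cells 3 were higher in the subcutaneous depot and 2 were lower, and in adipocytes 2 were higher and 3 were lower. Il1r1, the receptor of interleukin-1, was higher in subcutaneous stromo-vascular cells by 1.37 (4670 ± 93.2 against 1783 ± 103, adjusted p = 0.000935) and lower in subcutaneous adipocytes, at -1.25 (1100 ± 169 against 2816 ± 1198, adjusted p = 0.00415). Its interaction was -2.62 (adjusted p = 0.000143), the same sign as that of the 4 chemokines. Il1rn, which blocks that receptor, was lower in the subcutaneous depot in both fractions, at -1.01 in stromo-vascular cells (adjusted p = 0.00316) and -0.76 in adipocytes (0.0313). Tgfb1 was lower in subcutaneous adipocytes, at -2.26 (adjusted p = 0.00138) and had an interaction of -3.10 (0.00115). Il6st, the shared subunit gp130, was lower in subcutaneous stromo-vascular cells, at -0.66 (0.00696), while its second probe set gave -0.11 (0.807). In all, 4 of the 20 had a called negative interaction and none a positive one.

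Of 30 NF-kB, AP-1 and STAT components, 26 were tested, and in stromo-vascular cells 7 were higher in the subcutaneous depot and 1 was lower. Of all tested probe sets, 6.49% were called higher there and 12.9% in either direction. Nfkbia, the NF-kB inhibitor whose gene NF-kB itself induces, was higher by 0.86 (limma adjusted p = 0.000228), and its second probe set gave 0.50 without passing the threshold (0.0937). Cebpb, a C/EBP transcription factor, was higher by 0.91 (21344 ± 1734 against 11410 ± 1739, adjusted p = 0.000165) and Fosl1, an AP-1 subunit, by 1.18 (0.00271). Socs3, a feedback inhibitor of STAT3 signalling, was higher in subcutaneous stromo-vascular cells by 1.21 (adjusted p = 7.44e-05) and in subcutaneous adipocytes by 2.28 (4.56e-07). In adipocytes 1 of the 26 was higher in the subcutaneous depot, Socs3, and 2 were lower, Fosl1 at -1.55 (0.000876) and Rela at -0.47 (0.0462). For the interaction 2 were higher and 4 lower, with Fosl1 at -2.73 (8.37e-05) and Cebpb at -0.87 (0.00601). Between the fractions 12 of the 26 were higher and 6 lower in subcutaneous adipocytes, where 52.8% of all tested probe sets were called. In intraabdominal adipocytes 14 were higher and 4 lower, where 51.3% were called.

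Of 14 proteases and matrix partners that trim or hold chemokines, 9 were tested and 1 was called by depot. Mmp3, a metalloproteinase known to cleave CC chemokines, was higher in subcutaneous fat in stromo-vascular cells by 2.25 (68072 ± 3875 against 14274 ± 1369, adjusted p = 9.00e-06) and in adipocytes by 1.59 (622 ± 198 against 180 ± 70.4, adjusted p = 0.000726). Like Ccl8 it was thus called higher in the subcutaneous depot in both fractions. Dpp4, which cuts the ends of several chemokines, was not called in any of the 5 comparisons, with adjusted p of 0.159 or more.

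Markers of other cell types moved between the same groups. Of 13 tested macrophage and monocyte markers, 7 were lower and 1 was higher in stromo-vascular cells of the subcutaneous depot, the direction opposite to the chemokines. Their summed signal was 26890 to 28590 in the subcutaneous and 44620 to 50582 in the intraabdominal group. C1qa, a complement gene of tissue macrophages, was lower, at -2.80 (92.3 ± 9.85 against 888 ± 144, limma adjusted p = 3.02e-06). It and C1qb, at 25.6 ± 8.17, were below the filter signal of 173 where Ccl8 was highest. The second C1qb probe set read 469 there and 357 in the intraabdominal group, a difference of 0.34 (adjusted p = 0.703). Of the 15 markers on the array, 4 had a mean below 173 in that subcutaneous group. The 1 marker called higher was Csf1r, the receptor of the macrophage growth factor, at 0.74 (adjusted p = 0.00842). Its signal was 6425 ± 177 against 3829 ± 325, and its second probe set gave 0.01. In adipocytes the macrophage sums overlapped, at 24218 to 34456 and 18631 to 30613, and 1 of the 13, Cd14, was higher in the subcutaneous depot.

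Preadipocyte and fibroblast markers summed to 431269 to 470091 in subcutaneous and 324882 to 377395 in intraabdominal stromo-vascular cells, with 4 of 14 higher and 2 lower. In adipocytes they summed to 69039 to 98419 in the subcutaneous and 52785 to 59805 in the intraabdominal depot, with 4 of 14 higher and none lower. Among the 4 was Col1a1, the collagen chain, by 2.22 (adjusted p = 9.85e-08), while its second probe set gave 1.20 (0.000271). Neither pair of ranges overlapped. The 2 markers lower in subcutaneous stromo-vascular cells, opposite to Ccl8, were Lum, the matrix proteoglycan lumican, at -1.25 (3560 ± 370 against 8487 ± 640, adjusted p = 7.29e-05), and S100a4, a calcium-binding protein, at -2.41 (2465 ± 169 against 13419 ± 2145, adjusted p = 8.39e-05). Other markers of the list ran with Ccl8 there by their means. Among them were Thy1, at 35886 ± 1111 against 6638 ± 159, and Fap, at 2340 ± 196 against 788 ± 154. No marker of this list was listed at 0. Adipocyte markers in stromo-vascular cells summed to 23925 to 29613 in the subcutaneous and 16249 to 19486 in the intraabdominal depot, with 3 of 9 higher and none lower. In adipocytes the sums ran the other way, at 411703 to 482467 against 500337 to 593324, with 1 of 9 lower, Lep, and none higher. Of the endothelial markers 6 of 11 were higher in subcutaneous stromo-vascular cells, while their sums overlapped at 10706 to 12414 and 10433 to 17728.

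Of the smooth muscle and pericyte markers 8 of 9 were lower in subcutaneous stromo-vascular cells, with sums of 41006 to 41642 against 162794 to 191690. Mesothelial markers were lower there too, 5 of 5 tested, with sums of 1087 to 1413 against 6879 to 7064. Eosinophil and mast cell markers, for the cells that Ccl11 attracts among others, summed to 3216 to 3621 in subcutaneous and 1348 to 1968 in intraabdominal stromo-vascular cells. Of these 12 markers 10 had a mean below 173 in each stromo-vascular group, Ccr3, Epx and Prg2 included. The 2 tested were Cma1, a mast cell chymase, higher in subcutaneous stromo-vascular cells by 1.88 (adjusted p = 7.38e-05), and Tpsb2, a tryptase, with 0.67 (0.0997). T and B lymphocyte markers summed to 27080 to 35761 in intraabdominal against 14584 to 19233 in subcutaneous adipocytes, and to 1488 to 2339 in the stromo-vascular groups. Most of the adipocyte sums was Ighm, at 30561 ± 5127 in intraabdominal and 12925 ± 1421 in subcutaneous adipocytes. Of 5 tested, Ighm was the 1 called lower in subcutaneous adipocytes, and none was called higher. Other tested probe sets of Ighm gave -1.69 (limma adjusted p = 0.00228), -0.62 (0.336) and -0.23 (0.837) there. The means of the rest, Ms4a1 and Cd4 among them, were higher in subcutaneous adipocytes, and the median difference of the 5 was 0.84. The second Ms4a1 probe set went the other way, at -0.42 (adjusted p = 0.729). The part of any of these cell types in the chemokine differences was not tested.

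**Figure D4:**
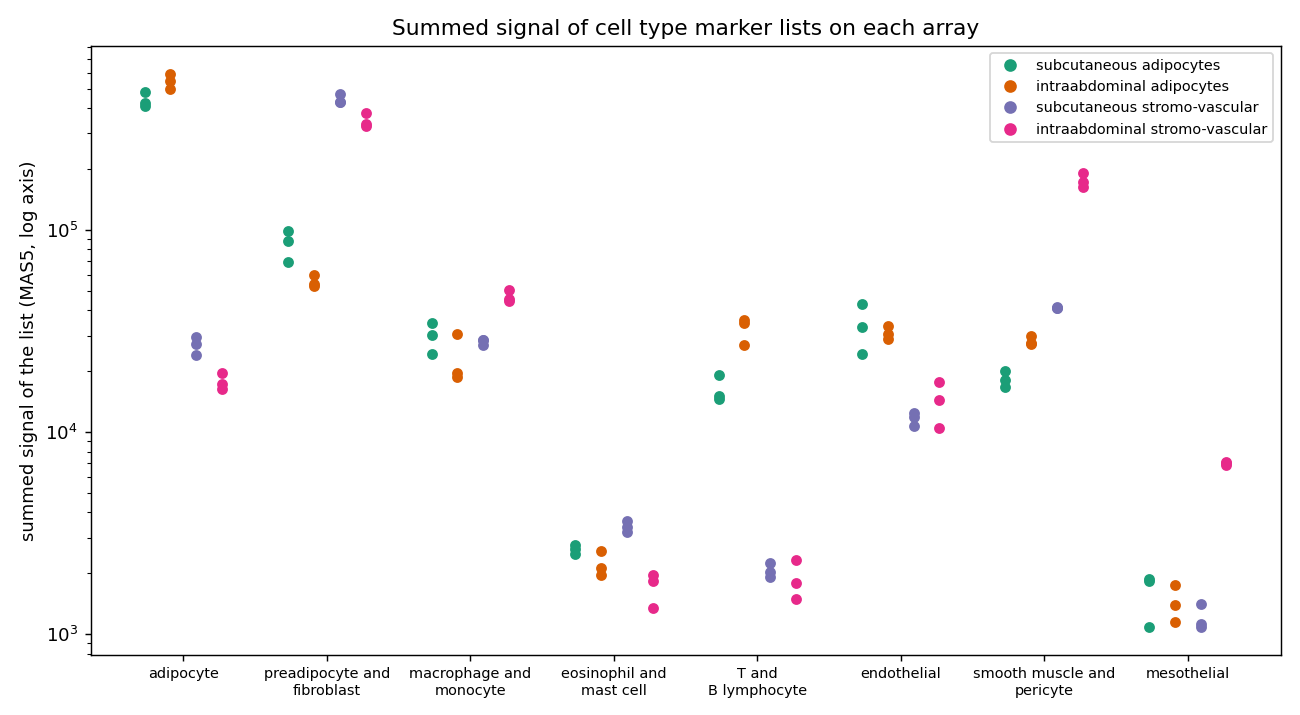
Summed MAS5 signal of 8 cell type marker lists on each array (log axis), coloured by group; n = 3 arrays per group. In stromo-vascular cells the macrophage, smooth muscle and mesothelial sums are higher in the intraabdominal depot, while the preadipocyte and fibroblast, adipocyte, and eosinophil and mast cell sums are higher in the subcutaneous depot.

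The interaction calls of the 4 genes were set beside each other under every alternative. For Ccl8 all 22 alternatives kept the call, with values from -4.10 to -2.84. For Ccl11 20 of 21 kept it, with -3.50 to -2.44. For Ccl2 and Ccl7 the sign was negative under every alternative run, at -1.05 to -0.48 and -1.05 to -0.71, and the adjusted p lay on either side of the threshold.

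**Figure D5:**
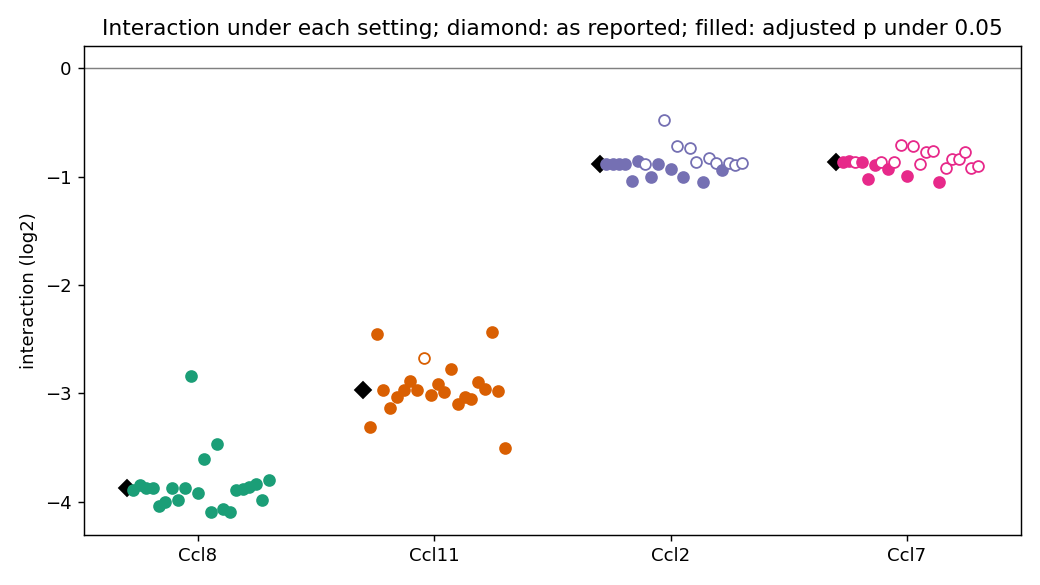
Interaction (log2 depot difference of adipocytes less that of stromo-vascular cells) of each chemokine under every setting run; the black diamond is the value reported, circles are the alternatives, and filled symbols have a limma adjusted p under 0.05. All symbols lie below 0, the Ccl8 circles are all filled, and open circles are the majority for Ccl7 only.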

How the data were processed

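RNA of 12 samples had been hybridised to Affymetrix arrays of 12488 probe sets, after labelling of 15 µg per the labels' protocols. The deposited intensity values are linear, from MAS5 per the submitters' processing notes, with no version named in the sources used here. Their 2% trimmed means lay within a ratio of 1.00017, so values were used as deposited. Control probe sets (66) were left out. Of 12422 others, 10833 had 1 symbol, 396 several and 1193 none here. log2(signal + 40.2), the 10th percentile as pseudocount, was fitted with 4 group means over all 12 arrays in limma 3.58.1 (R 4.3.3, eBayes with trend). The lowest 30% by mean log2 signal were left out and 8695 tested; all 4 chemokines passed. The steps were tested on simulated data. The number of arrays limits precision.

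Named were the 4 members, every tested CC ligand and receptor, up to 4 genes of each other list by smallest depot p, and the 5 genes most like each member. Where a count was 5 or fewer, genes outside this rule (Csf1r, Cd14, Rela, Dpp4, Thy1, Fap, untested receptors and Ccl12) were named after their values were seen. A gene with several probe sets is represented by its brightest. The members and lists were chosen with earlier results of these data known. Alternatives were other pseudocounts, filters, scalings, arrays, weights and covariates.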

Additional observations from a re-analysis of the deposited data

Results flagged for a closer look

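The depot difference in adipocytes and that in stromo-vascular cells differed for all 4 chemokines by the interaction test of limma. The interaction was -3.88 for Ccl8 (adjusted p = 3.95e-05), -2.97 for Ccl11 (0.00489), -0.88 for Ccl2 (0.0289) and -0.87 for Ccl7 (0.0400), on the log2 scale with 3 arrays per group. For Ccl8 both depot differences were above 0, at 1.77 in adipocytes and 5.65 in stromo-vascular cells. For Ccl2 they were -0.45 and 0.44, and neither passed the threshold alone. The Ccl2 and Ccl7 values lost their call under 10 and 14 of 22 alternatives. Groups of 3 arrays are too small to be tested for single arrays that stand apart.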

How the results depend on the processing

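Of 451 values of the 4 chemokines computed under an alternative, 407 kept their direction and side of the threshold, 27 lost a call, 11 gained a call and 6 turned sign. By depot in adipocytes the actin ratio as a covariate gave 0.20 for Ccl11, 0.014 for Ccl2 and 97 calls, beside 707 without it. The actin ratio did not overlap between the 2 adipocyte groups, so RNA quality and depot cannot be told apart there. The interactions, which take in the adipocyte values, share this limit. In stromo-vascular cells it gave 0.49 for Ccl2. Between fractions it gave -0.92 for Ccl8, -0.04 for Ccl11 and 1058 calls in subcutaneous fat, and 1.93 for Ccl8, 2.63 for Ccl11 and 2173 calls in intraabdominal fat. For the interaction it gave -2.67 for Ccl11, -0.48 for Ccl2, -0.71 for Ccl7 and 403 calls. Ccl2 in stromo-vascular cells by depot was called at 0.48 with quantile normalization, 0.44 with only the 2 groups compared and 0.45 with array weights, which gave 1952 calls. Ccl2 in adipocytes was called at -0.67 with arrays centred on their medians, and 299 probe sets were called there with only the 2 groups compared. Ccl11 between fractions of subcutaneous fat was called at -0.83 with a pseudocount of 100 and at -0.90 with only the 2 groups compared. The interactions of Ccl2 at -0.88 and Ccl7 at -0.87 lost their call with no intensity trend, and that of Ccl7 at -0.87 with no filter.

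Same-numbered arrays did not deviate together, with correlations of -0.09 to 0.11 over 18 pairs. Arrays with different numbers gave similar values, -0.17 to 0.12 over 36 pairs. The labels do not say what the numbers mark, and samples from the same mice need not deviate together. Whether the numbers pair the samples therefore cannot be told from these correlations. With the replicate number as a block the Ccl7 interaction was -0.87 at an adjusted p of 0.0678, and no other call of the 4 chemokines changed; 595 probe sets were called by depot in adipocytes, 1051 in stromo-vascular cells, 4506 and 4405 between fractions and 645 for the interaction.

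Leaving out 1 array at a time gave, by depot in adipocytes, -0.27 to 0.049 for Ccl11, -0.61 to -0.28 for Ccl2 and 367 to 958 calls. It gave -0.98 to -0.82 for Ccl11 in subcutaneous fat, called without intraabdominal stromo-vascular replicate 1 or 3, and -0.40 to 0.22 for Ccl8 in intraabdominal fat. The interaction ran from -1.05 to -0.71 for Ccl2 and -1.05 to -0.72 for Ccl7. A mean over probe sets was not run, since each chemokine has 1. Ccl11 gave no value with the stricter filter on dim probe sets. The cause was not tested for any of these. There are 3 arrays per group, and Ccl11 is dim in 1 group.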

Other observations

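The spread between the 3 arrays of a group was smaller in stromo-vascular cells, with a median SD over tested probe sets of 0.177 in subcutaneous and 0.217 in intraabdominal cells on the log2 scale, than in adipocytes, with 0.303 and 0.243. Ccl2 and Ccl8 followed this in the signal itself. The SD of Ccl2 was 114 at a mean of 8820 in intraabdominal stromo-vascular cells and 8898 at a mean of 42346 in intraabdominal adipocytes. That of Ccl8 was 590 at a mean of 33115 in subcutaneous stromo-vascular cells and 762 at a mean of 2312 in subcutaneous adipocytes. Ccl7 followed it on the log2 scale, with an SD of 0.0985 and 0.167 in subcutaneous and intraabdominal stromo-vascular cells and 0.280 and 0.324 in adipocytes. Ccl11 did not, since its widest group on the log2 scale was the intraabdominal stromo-vascular cells, at 22.6 to 235.

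Ccl12, the neighbour of Ccl11 and Ccl8 on the chromosome, belonged to no comparison because of its low signal. It read 115, 126 and 21.4 in subcutaneous stromo-vascular cells, where Ccl8 read 32576 or more, and 201, 256 and 74.2 in intraabdominal stromo-vascular cells.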
